A study of Homo sapiens with 6 samples.

Results

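Transcripts of 9 genes for matricellular proteins and YAP-type targets were followed in NCI-H295A cells with and without 8-Br-cAMP. The genes were CCN1, CCN2, THBS1, THBS2, SPARC, TNC, VCAN, FN1 and PLAT, of 11963 genes with a probe set of 1 symbol. All 25 probe sets annotated with one of these symbols alone were taken, of 22215 analysed. NCI-H295A is an established human adrenocortical carcinoma line that makes steroids, kept as a single line without other adrenal cells. Controls were nearly confluent plates without added 8-Br-cAMP, and treated plates received 1 mM 8-Br-cAMP, a cell-permeable cAMP analogue, for 18 h. Both groups were grown in the same medium with low serum, gentamicin, insulin and selenium, and each had 3 arrays, numbered 1 to 3.

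Matricellular proteins are secreted into the extracellular matrix, where they change how cells attach and respond to growth factors more than they build the matrix itself. YAP and TAZ are coactivators that enter the nucleus when the Hippo kinases are quiet, bind TEAD factors on DNA and switch on genes such as CCN1 and CCN2. In many cell types cAMP and protein kinase A act on the Hippo kinases and on actin, and in the adrenal cortex the cAMP signal comes from ACTH.

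TEAD factors bind DNA at the letters GGAATG, and the cAMP response element, bound by CREB, reads TGACGTCA. Promoters of 7 of the 9 genes were taken from the RefSeq promoter table (GRCh38.p14), and those of CCN1 and PLAT were not searched. In each, the 250 bases before the start site were searched on both strands for these letters. The promoters of CCN2 and THBS2 are shown because these transcripts passed the paired test described below, and a stretch of FN1 because it holds the element. Sequences run 5′ to 3′ on the gene's strand, and capitals mark GGAATG or its reverse complement CATTCC in the first pair and TGACGTCA in the last.
CCN2 (chr6:131951373-131951622, minus strand): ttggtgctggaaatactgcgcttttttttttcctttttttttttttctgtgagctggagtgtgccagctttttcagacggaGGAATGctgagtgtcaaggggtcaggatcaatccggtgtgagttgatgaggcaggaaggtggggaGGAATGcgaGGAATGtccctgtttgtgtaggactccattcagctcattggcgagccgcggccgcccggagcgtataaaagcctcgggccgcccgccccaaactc
THBS2 (chr6:169253847-169254096, minus strand): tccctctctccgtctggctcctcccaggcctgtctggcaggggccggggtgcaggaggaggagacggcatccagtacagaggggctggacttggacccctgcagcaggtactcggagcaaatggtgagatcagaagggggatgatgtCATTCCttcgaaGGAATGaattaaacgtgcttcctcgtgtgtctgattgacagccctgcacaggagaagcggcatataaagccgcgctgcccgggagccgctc
FN1 (chr2:215436228-215436267, minus strand): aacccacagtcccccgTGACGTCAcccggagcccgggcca

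CCN2 held 3 copies of GGAATG, starting 169, 104 and 95 bases before the start site. At least 1 copy stood in 11.9% of 35116 promoters of the same length, and 3 or more in 0.0826%. THBS2 held 2, on opposite strands and 6 bases apart, and 2 or more stood in 0.94% of promoters. THBS1 and SPARC held 1 copy each, at 46 and 17 bases before the start, and TNC, VCAN and FN1 held 0. AMOTL2, a YAP target outside the 9 genes that was lower after 8-Br-cAMP (below), also held 0 in this window. FN1 held the full TGACGTCA, found in 1.65% of promoters. VCAN held 1 copy of the shorter CREB letters TGACG, found in 21.2%, and FN1 held 2 that lie within its full element. The AP-1 letters TGANTCA (6.57% of promoters) and the SRF CArG box (1.16%) had 0 matches in these 7 windows. A match describes letters in the reference and is no evidence of binding in these cells.

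The 2 arrays numbered 1 differed from the rest. Their actin 3'/5' ratio, which climbs with RNA breakdown, reached 5.72 (control) and 38.8 (8-Br-cAMP), while no other array exceeded 2.41. Member values are therefore given with and without this pair, the latter as a fit without block to arrays 2 and 3 of each group. Of 11 adrenocortical marker genes, 10 had a probe set and all 10 lay above the filter level used here, a mean signal of 45.5 (geometric mean over the 6 arrays). Of 9 fibroblast and mesenchymal markers 4 lay above it, and their summed signal ran from 396.2 to 753 in controls and from 422.4 to 520.5 after 8-Br-cAMP. FAP read 261.8, 134.2 and 128.5 on controls and 65.6, 85.7 and 110.5 after 8-Br-cAMP, lower without overlap. COL1A1, DCN and THY1 read 52.9 to 167.4 with overlap, and the other 5 lay below the filter level. Of these LUM was higher without overlap, with 0.4, 0.4 and 0.3 on controls and 1.3, 8.5 and 8.2 after treatment. PDGFRA read 129.3, 34.5 and 4.2 on controls and 3.2, 6.8 and 3.1 after treatment, with overlap. COL1A2, PDGFRB and PDPN also overlapped. For endothelial, chromaffin and immune markers 1 of 6, 1 of 6 and 2 of 5 measured genes lay above it. Below it on their means, endothelial TEK and chromaffin SLC18A1 were lower without overlap after 8-Br-cAMP. TEK read 106, 60.7 and 68.1 on controls and 11.3, 20.7 and 14.2 after treatment. SLC18A1 read 34.4, 56.2 and 33.3 on controls and 12.3, 6.9 and 31.9 after treatment. The other measured endothelial and chromaffin markers overlapped. The part of these cells or of RNA quality in the results below was not tested.

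**Figure D1:**
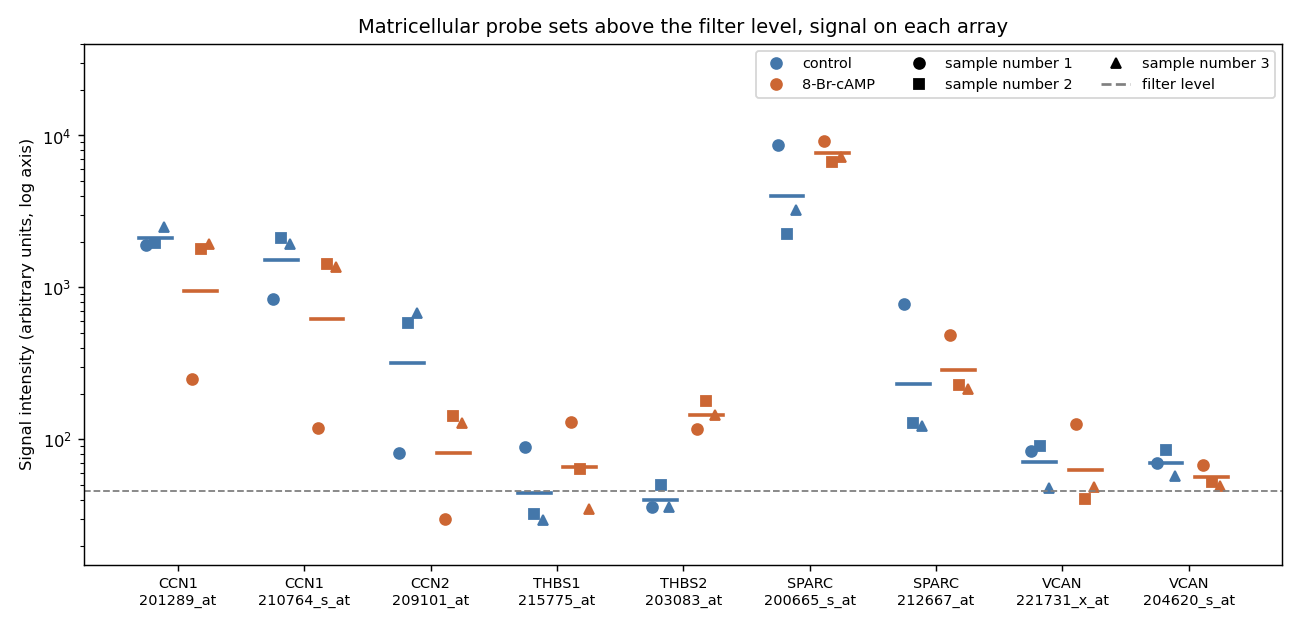
Signal intensity (arbitrary units, log axis) of the 9 matricellular probe sets above the filter level on each array. Blue marks controls and orange 8-Br-cAMP, circles, squares and triangles mark sample numbers 1, 2 and 3, bars mark geometric means and the dashed line the filter level of 45.5. Only the THBS2 groups are apart, with controls at 35.8 to 49.7 and treated arrays at 116.6 to 180.1.

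CCN2 was lower and THBS2 higher after 8-Br-cAMP in each same-numbered pair. Both CCN1 probe sets and VCAN 204620_s_at were also lower in each pair, and SPARC 200665_s_at and THBS1 215775_at higher. The size of the differences of the 2 SPARC and 2 CCN1 probe sets depended on the number 1 arrays. FN1, TNC and PLAT stayed under the filter level on average. Of the 25 probe sets 9 lay above it (36%, against 60% of all probe sets), and these belonged to CCN1, CCN2, THBS1, THBS2, SPARC and VCAN. THBS2 203083_at and THBS1 215775_at had control means under this level and passed it through their treated arrays. Counts over the 9 are therefore a description. In limma without a block 0 of these 9, and 0% of all 13329 kept probe sets, passed an adjusted p of 0.05 (1474 of all had an unadjusted p under 0.05, THBS2 as the 1 of these 9). In limma with a replicate block by sample number, called the paired fit, 2 of 9 (2 genes) passed, CCN2 lower and THBS2 higher, against 3.21% of all kept probe sets (1.55% higher, 1.66% lower). The fit to arrays 2 and 3 called 5 of 9 (4 genes), against 30.8% of all (12.1% higher, 18.7% lower), with 2 arrays a group. All 3 pairs had the same sign for 7 of the 9, against 44.1% of all. The selection in the design text, which asks for a 2-fold change and p under 0.05 before adjustment, took 1 member (THBS2), against 6.6% of all. Levels are those of a whole culture, in which fewer cells with a transcript and less RNA per cell cannot be told apart.

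CCN2 encodes connective tissue growth factor, a secreted CCN protein and a standard readout of YAP and TEAD. Its probe set 209101_at read 81.5, 579.2 and 682.4 on controls 1, 2 and 3. After 8-Br-cAMP it read 30, 142.4 and 127.6. The groups overlapped because control 1 lay below 8-Br-cAMP 2 and 3, but each treated array lay below its same-numbered control. Pairs 1, 2 and 3 gave log2 differences of -1.44, -2.02 and -2.42. The mean log2 signal went from 8.31 ± 1.71 (SD, n = 3) to 6.35 ± 1.25, and CCN2 fell by 1.96 on the log2 scale in the paired fit (SE 0.27, 95% interval -2.61 to -1.31, adjusted p = 0.0231, limma). Without the block limma gave an adjusted p of 0.513 for the same difference. On arrays 2 and 3 alone the difference was -2.22 (adjusted p = 4.44e-05, limma). In the paired fit without pair 3 the difference was -1.73 and the call was lost (adjusted p = 0.0551, limma). Without a block the difference was -2.94 when control 1 alone was left out and -1.24 when 8-Br-cAMP 1 was, and neither passed.

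CCN1 encodes CYR61, the CCN protein next to CCN2 in most lists of YAP targets and an immediate early gene. Its probe set 201289_at read 1896.8, 1972.3 and 2509.9 on controls 1, 2 and 3, and 248.7, 1786 and 1924.4 after 8-Br-cAMP. A single array, 8-Br-cAMP 1, lay far below the other 5. The other probe set, 210764_s_at, read 836.1, 2129.7 and 1916.3 on controls and 119.6, 1430.2 and 1367.8 after treatment, with 8-Br-cAMP 1 again lowest and control 1 next. Pairs 1, 2 and 3 gave log2 differences of -2.93, -0.14 and -0.38 for 201289_at, and of -2.81, -0.57 and -0.49 for 210764_s_at.

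Neither CCN1 probe set passed the paired fit, with mean log2 differences of -1.15 (95% interval -2.40 to 0.09, adjusted p = 0.263, limma) and -1.29 (-2.38 to -0.20, adjusted p = 0.175). With 8-Br-cAMP 1 alone left out and no block these became -0.19 and -0.11. On arrays 2 and 3 alone, 201289_at differed by -0.26 (adjusted p = 0.167, limma) and 210764_s_at fell by 0.53 (adjusted p = 0.00710). The paired fit without pair 2 called both (-1.66 and -1.65, adjusted p = 0.0372 and 0.0382, limma), as did that without pair 3 (-1.54 and -1.69, adjusted p = 0.0490 and 0.0206). In pair 1 the CCN1 difference exceeded that of CCN2, and in pairs 2 and 3 it was smaller. Whether the CCN genes differ in their response was not tested.

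**Figure D2:**
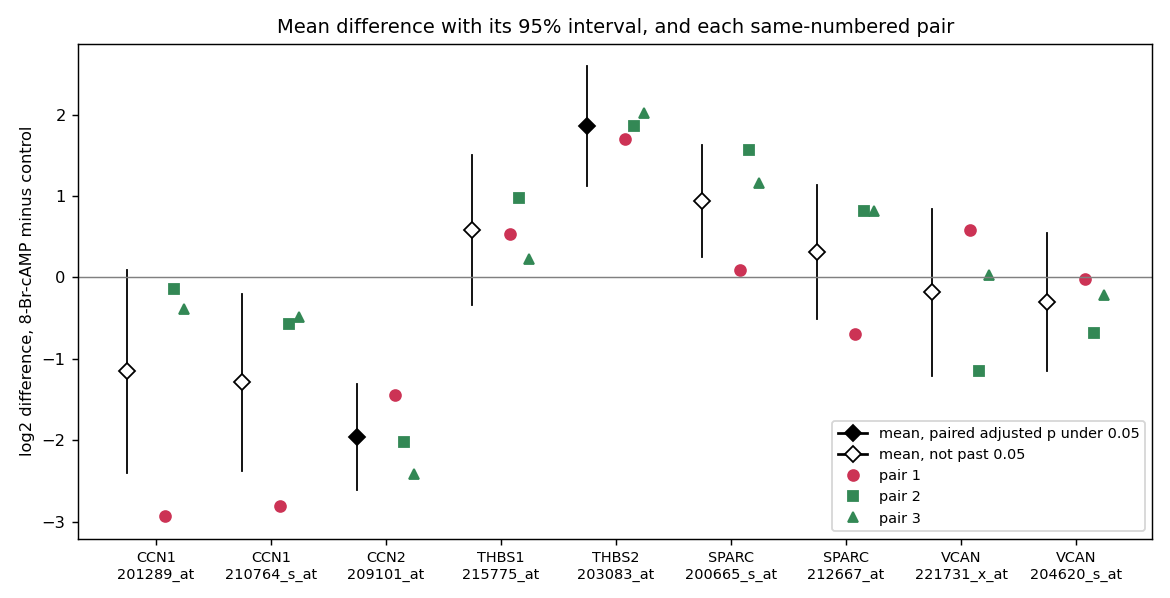
Log2 differences, 8-Br-cAMP minus control, of the 9 matricellular probe sets above the filter level. Diamonds with lines are the means and 95% intervals of the paired fit, filled where its adjusted p is under 0.05, and circles, squares and triangles are pairs 1, 2 and 3. All pairs lie on 1 side of 0 for 7 of the 9, CCN2 (-1.44 to -2.42) and THBS2 (1.70 to 2.02) among them. Pair 1 stands off for CCN1 and SPARC.

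THBS2 encodes thrombospondin 2, a secreted glycoprotein that restrains angiogenesis, and earlier work in adrenocortical cells knew it as an ACTH-induced secreted protein. Its 1 probe set, 203083_at, read 36, 49.7 and 35.8 on controls 1, 2 and 3. After 8-Br-cAMP it read 116.6, 180.1 and 145.3, so every treated array lay above every control. Among the 9 member probe sets above the filter level this was the 1 without overlap, against 18.5% of all kept probe sets (6.02% higher, 12.5% lower). Controls 1 and 3 and the control mean lay below the filter level, which the probe set passed through its treated arrays, so no fold is given and its place among the 9 is a description. The mean log2 signal went from 5.32 ± 0.27 to 7.18 ± 0.31 (SD, n = 3), and THBS2 rose by 1.86 on the log2 scale in the paired fit (SE 0.31, 95% interval 1.13 to 2.59, adjusted p = 0.0335, limma). With no filter on dim probe sets the paired adjusted p was 0.0491 (limma). Without the block the adjusted p was 0.111 (limma), and on arrays 2 and 3 alone the difference was 1.94 (adjusted p = 0.00234). The pairs gave 1.70, 1.86 and 2.02. Left without pair 2 or pair 3, the paired fit gave 1.86 and 1.78 and no longer called it (adjusted p = 0.0741 and 0.143, limma).

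THBS1 encodes thrombospondin 1, the relative of THBS2 that binds CD36 and CD47 and can activate latent TGF-beta. Of its 5 probe sets 4 lay below the filter level, with signals from 0.2 to 47.3 and 1 of 24 values above 45.5. The remaining one, 215775_at, read 89.3, 32.5 and 29.5 on controls and 129.2, 63.9 and 34.6 after 8-Br-cAMP. Array 1 was the brightest in each group, and the groups overlapped. Its log2 difference was 0.58 (paired 95% interval -0.34 to 1.50, adjusted p = 0.439, limma). With 8-Br-cAMP 1 left out and no block it was 0.09.

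SPARC encodes osteonectin, a collagen-binding calcium-binding protein of remodelled matrix. Probe set 200665_s_at read 8614.2, 2263.4 and 3236 on controls, and 9206.7, 6717.2 and 7208.3 after 8-Br-cAMP. Control 1 lay within the treated range, and controls 2 and 3 lay below all treated arrays. The pairs gave 0.10, 1.57 and 1.16 on the log2 scale, and the mean of 0.94 did not pass the paired fit (95% interval 0.25 to 1.63, adjusted p = 0.134, limma). Probe set 212667_at read 783, 129.1 and 121.6 on controls and 484.7, 227.1 and 214.6 after treatment, with pair differences of -0.69, 0.81 and 0.82. Its mean difference was 0.31 (adjusted p = 0.646, limma), and -0.057 on a scale set by the spike-in controls. Both rose in the fit to arrays 2 and 3, by 1.36 (adjusted p = 0.000644) and 0.82 (adjusted p = 0.0101, limma). With control 1 alone left out and no block the differences were 1.50 and 1.20, and neither passed.

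VCAN encodes versican, a large hyaluronan-binding proteoglycan, and 2 of its 5 probe sets lay above the filter level. Probe set 221731_x_at read 83.8, 90.3 and 48.1 on controls and 125.6, 40.7 and 48.9 after 8-Br-cAMP. For 204620_s_at the values were 69.4, 84.7 and 57 on controls and 68.3, 52.7 and 49.1 after treatment. Both sets of groups overlapped, and the log2 differences of -0.18 (95% interval -1.21 to 0.84, adjusted p = 0.848) and -0.31 (-1.15 to 0.54, adjusted p = 0.664, limma) did not pass the paired fit. The first changed sign after quantile normalization (0.079) and with a common median (0.045). The other 3 probe sets read 0.3 to 20.2.

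FN1 encodes fibronectin, the adhesive glycoprotein to which integrins attach cells. Its 6 probe sets all lay below the filter level, with signals from 1.2 to 54.2 and 3 of 36 values above 45.5. The brightest, 210495_x_at, read 21.9, 26.8 and 9.8 on controls and 20.4, 53.1 and 46.7 after 8-Br-cAMP, with 8-Br-cAMP 1 inside the control range. TNC encodes tenascin C, an anti-adhesive hexameric glycoprotein, and its probe sets read 2.7 to 55, with 2 of 12 values above 45.5. Its 201645_at read 2.7, 9.7 and 41 on controls and 27.3, 55 and 46.7 after treatment. PLAT encodes tissue-type plasminogen activator, the protease that turns plasminogen into plasmin, and read 2.6 to 23.5 on all 6 arrays. Such values near the low end of the arrays give no dependable level. With no filter, 0 of the 16 member probe sets below the filter level passed the paired fit (adjusted p from 0.269 to 0.987, limma). Of these 16, 2 had no overlap between groups (against 15.1% of all probe sets), 1 of THBS1 (2.2 to 4.6 on controls, 5.5 to 14.8 after treatment) and 1 of FN1 (1.2 to 1.3 and 1.5 to 11.8). Detection calls were not used here.

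**Figure D3:**
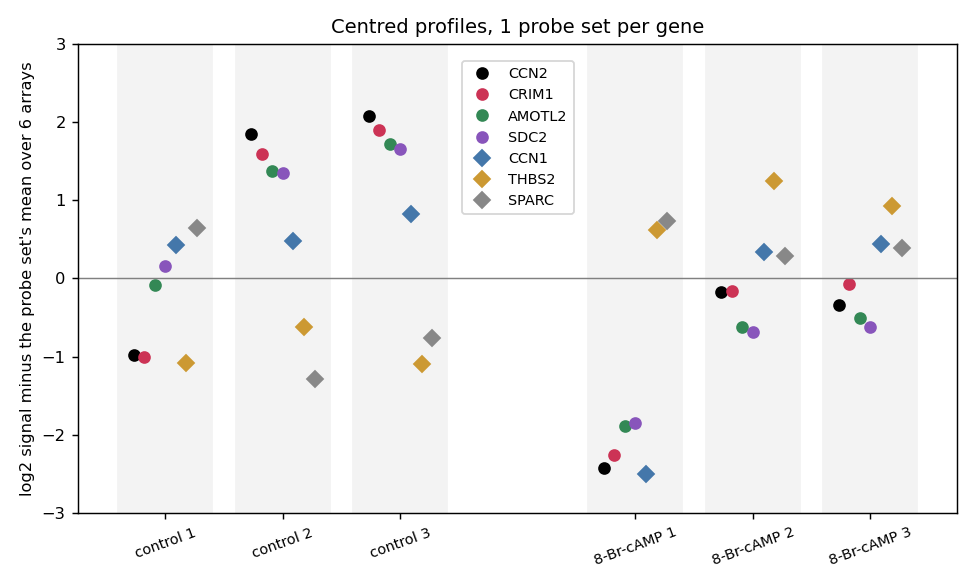
Log2 signal on each array minus the probe set's own mean over the 6 arrays, for the probe set with the highest mean of each gene. Circles are CCN2, CRIM1, AMOTL2 and SDC2, and diamonds CCN1, THBS2 and SPARC. CCN2 and CRIM1 lie close together on every array (root mean square difference 0.18) and are lowest on the number 1 array of each group.

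Profiles over the 6 arrays were compared by the root mean square difference of centred log2 signals, over 7926 other genes. Such likeness is shaped by the number 1 arrays as well as by the treatment, and is a description only. The gene nearest to CCN2 was CRIM1, a membrane protein with cysteine-rich repeats that also stands in the YAP/TAZ signature (0.18), followed by the kinase gene SGK1 (0.45). AMOTL2 ranked 7 (0.53), SDC2 ranked 19 (0.63) and CCN1 ranked 334 (1.02). Nearest to CCN1 were CASP8AP2 (0.13) and KLF3-AS1 (0.15), nearest to THBS2 were ALDH3A2 (0.17) and DLC1 (0.20), and nearest to SPARC were HGSNAT (0.13) and H1-2 (0.17). The dim profile of THBS1 lay nearest to KCNK5 (0.21) and TNFSF9 (0.23), and that of VCAN to OR3A3 (0.10) and LRTM1 (0.12).

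CRIM1 read 106.9, 647.9 and 795.7 on controls and 44.9, 190.8 and 204.4 after 8-Br-cAMP, and fell by 1.66 on the log2 scale in the paired fit (SE 0.24, adjusted p = 0.0246, limma). Its other probe set fell by 1.62 (adjusted p = 0.0299, limma). AMOTL2, an angiomotin-like protein that holds YAP outside the nucleus and is itself a YAP target, read 553.6, 1529.4 and 1929.5 on controls. After treatment it read 159.1, 382 and 413.4, below all controls, and fell by 2.01 (SE 0.20, adjusted p = 0.0109, limma). Neither gene passed without the block (adjusted p = 0.571 and 0.255, limma).

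These 2 genes were the members of the YAP/TAZ target signature that passed the paired fit. Of its 20 genes, CCN1 and CCN2 not counted, 17 had a probe set, 10 lay above the filter level, 0 rose, 2 fell and 8 did not pass. Signature genes below the filter level entered none of these counts. Among them, at the brightest probe set, IGFBP3 was higher without overlap (see the closing section), and DOCK5 and ARHGEF17 were lower without overlap. The median log2 difference of the 10 was -0.40, against -0.14 over all 7927 genes, of which 3.68% passed (1.73% higher, 1.96% lower). The fit to arrays 2 and 3 called 2 higher and 3 lower, where 33.3% of all genes passed (12.8% higher, 20.5% lower). ANKRD1, a muscle ankyrin-repeat protein often read as a YAP target, was at 39.7, 114.7 and 127 on controls and 51.7, 92.1 and 74.1 after treatment (log2 difference -0.24, paired adjusted p = 0.744, limma).

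Of 25 Hippo kinase, YAP and TEAD genes 21 had a probe set and 14 lay above the filter level, of which 0 rose and 1 fell (AMOTL2, which stands in both lists). Their median log2 difference was -0.56, against -0.14 over all genes, of which 3.68% passed the paired fit. The fit to arrays 2 and 3 called 0 higher and 7 lower, where 33.3% of all genes passed (12.8% higher, 20.5% lower). YAP1 itself read 121.8, 341.6 and 320.6 on controls and 191.6, 233.7 and 226 after 8-Br-cAMP, with opposite directions in pair 1 and the others. Its log2 difference was -0.13 (paired adjusted p = 0.839, limma), and on arrays 2 and 3 alone it fell by 0.53 (adjusted p = 0.0261). WWTR1, which encodes TAZ, read 501.9, 271.8 and 361.5 on controls and 260.5, 209 and 248.3 after treatment. Its treated arrays lay below all controls, but the log2 difference of -0.62 did not pass (paired adjusted p = 0.179, limma).

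SRF and its coactivators run a second mechanosensitive programme, of actin and contractile genes, that shares CCN1 and CCN2 with YAP. Of 15 such genes above the filter level 0 passed the paired fit at their brightest probe set, against 3.68% of all genes. TPM1, a tropomyosin, had the smallest paired p, with -1.16 (adjusted p = 0.0654, limma), and a further TPM1 probe set passed at -1.51 (adjusted p = 0.0499).

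**Figure D4:**
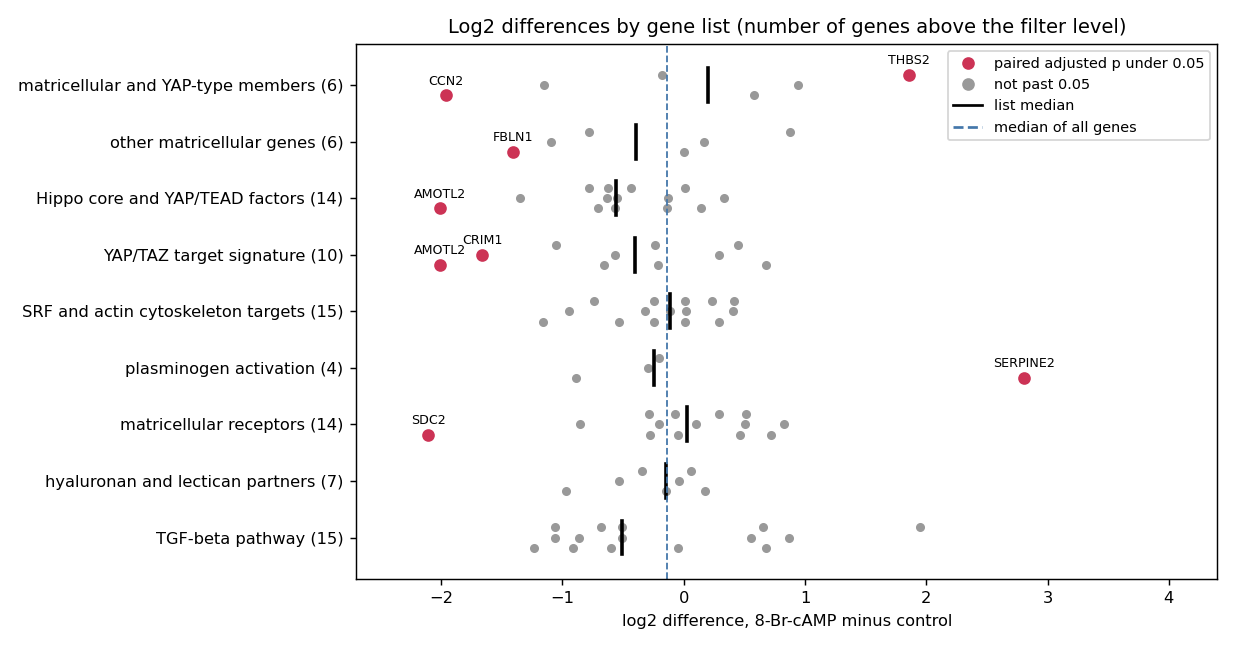
Log2 differences, 8-Br-cAMP minus control, of genes above the filter level in each list, 1 probe set per gene, with the number of genes in brackets. Red points with names passed the paired fit, black bars are list medians and the dashed line is the median of all genes (-0.14). Named genes are CCN2, FBLN1, AMOTL2, CRIM1 and SDC2 on the low side, and THBS2 and SERPINE2 on the high side.

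Among 22 other matricellular genes 20 had a probe set and 6 lay above the filter level. In the paired fit 0 of these rose and 1 fell, where 3.68% of all genes passed. FBLN1, encoding the elastic-fibre and fibronectin-binding protein fibulin 1, read 1231.1, 850.4 and 900.3 on controls and 379.2, 379.5 and 349.9 after 8-Br-cAMP. It fell by 1.41 (SE 0.21, adjusted p = 0.0258, limma), with 1 of its 4 kept probe sets passing and 1 of them higher after treatment. CCN3, a further CCN protein, read 8871.9, 888.2 and 892.4 on controls and 4605.5, 3056 and 3069.3 after treatment. It was lower in pair 1 and higher in pairs 2 and 3 (mean log2 difference 0.87, paired adjusted p = 0.395, limma).

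Among cell-surface receptors of these proteins 14 lay above the filter level, and 0 rose and 1 fell in the paired fit, where 3.68% of all genes passed. On arrays 2 and 3 alone 4 rose and 1 fell, where 33.3% of all passed. SDC2, the heparan sulphate proteoglycan syndecan 2, read 570, 1298.2 and 1616.2 on controls and 142.3, 316.7 and 333.1 after 8-Br-cAMP, below all controls. It fell by 2.11 (SE 0.20, adjusted p = 0.0106, limma), and 2 of its 3 kept probe sets passed, all 3 lower. The thrombospondin receptors CD36 and CD47 differed by 0.51 (adjusted p = 0.375) and -0.28 (adjusted p = 0.440, paired limma).

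In the plasminogen system, to which PLAT belongs, 4 of 10 measured genes lay above the filter level. In the paired fit 1 of these rose, where 3.68% of all genes passed. SERPINE2, encoding protease nexin 1, an inhibitor of thrombin and plasminogen activators, read 51.9, 121.8 and 62.9 on controls and 166.6, 900.4 and 904.4 after 8-Br-cAMP. All treated arrays lay above all controls, and it rose 6.99-fold (log2 difference 2.80, SE 0.40, adjusted p = 0.0246, paired limma). Pair differences were 1.68, 2.89 and 3.85. The brightest probe set of PLAU, the urokinase gene, read 26.2 or less on every array.

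Of 7 hyaluronan and lectican partner genes above the filter level, the setting of versican, 0 passed the paired fit, against 3.68% of all genes. FBN2, a microfibril protein that versican binds, had the smallest paired p (-0.97, adjusted p = 0.0922, limma). Of 15 TGF-beta pathway genes above the filter level, the fit to arrays 2 and 3 called 5 higher and 8 lower. That fit called 33.3% of all genes (12.8% higher, 20.5% lower). In the paired fit 0 of the 15 passed, against 3.68% of all genes. TGFBR3, the co-receptor betaglycan that also binds inhibin, came closest (log2 difference 1.95, adjusted p = 0.0539, limma), with 1203.9, 345.3 and 236.8 on controls and 1974.5, 1715 and 1660.6 after treatment. Over the 8 related lists, 81 of 126 measured genes other than members lay above the filter level, and 1 rose and 4 fell in the paired fit (6.17%, against 3.68% of all genes). On arrays 2 and 3 alone 13 rose and 25 fell (46.9%, against 33.3%).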

How the data were processed

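RNA of 3 control and 3 8-Br-cAMP samples was hybridised to Affymetrix arrays. The deposited values are GCOS 1.3 signal intensities on a linear scale, per the submitters' processing notes and the design text. Their 2% trimmed means lay within 250.0 to 250.2, so arrays were not rescaled, and a general shift of transcripts would not be seen. Of 22277 rows 62 array controls were left out. GEO's platform annotation gave 1 symbol for 19064. Intensities were taken to log2, and the 13329 probe sets with a mean above the 40th percentile (5.51) were fitted in limma 3.58.1 (R 4.3.3, lmFit, eBayes with trend, two-sided, Benjamini-Hochberg over all kept probe sets, 0.05). Unless another tool is named, adjusted p-values are limma's.

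The fit reported first had no block. Deviations of same-numbered arrays correlated at 0.603, 0.378 and 0.538, so numbers were taken to pair the samples, from the data and not the labels. Control 3 with 8-Br-cAMP 2 gave 0.547 and control 2 with 8-Br-cAMP 3 gave 0.312, while number 1 with number 2 or 3 gave -0.379 to -0.596. The correlations thus set number 1 apart and do not tell numbers 2 and 3 from each other. The design text speaks of 3 plates and of separate experiments without tying sample numbers to them, so p-values measure only how far these samples spread, in part perhaps technically. Lists were read at 1 probe set per gene (highest mean). Members, lists and alternatives were chosen with earlier results of these data known. Named genes are all members, and per list up to 4 passing genes with the smallest paired p, or the smallest if none passed. Genes named besides these (YAP1, WWTR1, ANKRD1, CCN3, CD36, CD47, PLAU, SGK1 and IGFBP3) were chosen after their values were seen or by likeness. The fit was also run on data simulated from the paired model with independent noise, which cannot test the pairing or the number 1 arrays. Alternatives are given in the closing section.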

Additional observations from a re-analysis of the deposited data

How the results depend on the processing

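Without a block limma called 0 of all probe sets and 0 of the 9 member probe sets. All-probe-set counts were 17 with quantile normalization, 17 with a common median, 14 with spike-in scaling, 18 with a 60th percentile filter, 28 with a floor at the 20th percentile, 28 with a pseudocount of 16 and 1 in the unmoderated test, with 0 member probe sets called in each. The design text's selection of at least 2-fold and an unadjusted p under 0.05 gave 880, with 1 member probe set (THBS2). With the replicate block the counts were 428, and 337 (quantile), 142 (common median), 1064 (spike-in), 406 (no filter), 440 (60th percentile), 481 (floor), 548 (pseudocount), 81 (no trend) and 408 (robust eBayes). With the block 2 member probe sets were called, CCN2 and THBS2, except for 1 with the 60th percentile filter, which THBS2 does not reach, and 1 without the trend, where CCN2 was lost (adjusted p = 0.0553). Arrays 2 and 3 alone gave 4103 without and 4680 with the block, with 5 member probe sets in both (THBS2, 2 of SPARC, 1 of CCN1 and CCN2), and 38 genes of the related lists passed there, against 0 with all arrays and 5 with the block. Leaving out 1 array without a block gave 0 to 285 probe sets and 0 to 1 member probe sets. With the block the counts were 4680 of all and 5 of the members without pair 1, and 342 and 3 (2 of CCN1, and CCN2) without pair 2. Without pair 3 they were 160 higher and 135 lower of all, and 2 of the members, both of CCN1. CCN2 differed by -2.33 to -1.74 and THBS2 by 1.49 to 2.08 over the settings with the block and all arrays. Signs turned for SPARC 212667_at on the spike-in scale (-0.057, with or without the block) and over single arrays left out (-0.15 to 1.20). They turned for VCAN 221731_x_at with quantile normalization (0.079) and a common median (0.045), over single arrays left out (-0.68 to 0.13) and over pairs left out with the block (-0.56 to 0.30). The cause was not tested. Over all kept probe sets the median difference moved from -0.13 to 0.09 (common median) and to -0.50 (spike-ins), and the called probe sets with the block split into 207 higher and 221 lower as deposited, 184 and 153 (quantile), 103 and 39 (common median) and 103 and 961 (spike-ins).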

Other observations

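IGFBP3, an IGF-binding protein of the YAP/TAZ signature, lay below the filter level on its mean and entered no count above. Its brighter probe set read 2.3, 8.4 and 4.3 on controls and 44.9, 508.5 and 541.6 after 8-Br-cAMP, above all controls. With no filter the paired fit called it higher (adjusted p = 0.00971, limma), and the fit without the block did not (0.138). Its other probe set read 12.7, 4.7 and 2.8 on controls and 5.9, 256.3 and 310.3 after treatment, with 8-Br-cAMP 1 inside the control range (paired adjusted p = 0.245 with no filter). Controls this low give no reliable fold. The gene was chosen after its values were seen.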
